A study of Drosophila melanogaster with 12 samples.

Results

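The genes described here govern fat storage and its release in the fly: AkhR, bmm, Hsl, Lsd-1, Lsd-2, mag, Lip3, Lip4, mdy and ACC. They were chosen by name, and every probe set of the array assigned to one of them was taken, after the platform's gene names had been updated to current symbols. Of these 10 genes, 9 were measured, by 10 probe sets, among 11981 genes and 18769 probe sets in all. No probe set was named for Hsl, which is not analysed here. Mutant flies of the stock nub1 b1 pr1, called nub1, were compared with wild type (wt) flies, whose sample labels give the strain as OregonR and w1118 while the design text names OregonR alone. All were females aged 7 to 12 days, untreated, kept in mixed populations of both sexes, and each array was hybridised with RNA from a pool of 20 flies. The carcass was the fly without its head and gut, and the gut was dissected separately, which gave 3 arrays each of nub1 carcass, wt carcass, nub1 gut and wt gut. Replicates were independent pools, and whether the same pool gave both a gut and a carcass array is not stated. The genotypes came from different stocks, and nub1 flies also carried b1 and pr1. Effects of nub1, of these alleles and of stock cannot be told apart. The comparison asks which of these genes differ between nub1 and wt flies, in the gut and in the rest of the body. The nub gene encodes Nubbin (Nub), a POU domain transcription factor. The authors report that the Nub-PD protein was not detected in nub1 flies, while the Nub-PB protein was still made.

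Flies store triglyceride as droplets, mostly in the fat body, an organ that combines functions of liver and adipose tissue, and also in gut cells. Droplets are coated by perilipins, which control the access of lipases. Stores are opened by adipokinetic hormone (AKH), a glucagon-like peptide from the corpora cardiaca that acts on a G protein-coupled receptor in the fat body, and by the lipase Brummer. Dietary fat is split by lipases that the midgut secretes.

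Signals are MAS5 values, linear intensities that the authors' software scaled so that the trimmed mean of every array was 100, and the array medians lay between 7.81 and 14.9. Signals of different probe sets are not comparable, so each gene is set only against itself. A gene is called changed when limma's moderated test on log2(signal + 10), with Benjamini-Hochberg adjustment over all probe sets tested, gave an adjusted p under 0.05 and at least a 2-fold change on that scale. Folds of signals are ratios of group means, log2 changes are differences of log2(signal + 10), which understate changes of dim probe sets, and values after a ± sign are SDs of 3 arrays.

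The nub probe set had 420.3, 384.6 and 565.5 in nub1 guts, against 282.3, 203.1 and 316.6 in wt guts (log2 change 0.76, SE 0.19, adjusted p = 0.0097, under 2-fold), and at most 8.42 in any carcass. The files do not tell which nub transcripts it reads, so it does not check the genotype. The pr probe set, for the purple gene mutated in this stock, averaged 133.2 in nub1 carcasses and 334.6 in wt carcasses. All 6 measured midgut digestive enzyme genes were higher in gut than in carcass of wt flies. Each of the 7 measured fat body markers had a lower mean in wt gut than in wt carcass, and 2 passed as changed. Their median log2 difference was -0.81, beside -0.32 over all probe sets, and fat body transcripts were read in both tissues. Transcripts of ovary and eggshell had a mean log2(signal + 10) of 4.82, 9.53 and 6.25 on the 3 nub1 gut arrays and 4.81, 8.57 and 9.94 on the 3 wt gut arrays. In carcass this mean was 11.4 to 11.5 in nub1 and 11.4 to 11.6 in wt, so carcass arrays also read ovary. The part of ovary RNA in the differences between tissues was not tested. Dup99B, a gene of the male ejaculatory duct, had 443.6 and 780.7 on nub1 gut arrays 1 and 3 and 86.0 on nub1 carcass array 2, and at most 9.77 elsewhere. The results below were therefore also computed without the 3 gut arrays highest in eggshell transcripts and without the 3 arrays with Dup99B.

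In nub1 carcasses 3 of the 8 genes tested were changed, all lower, namely AkhR, Lsd-1 and mag, where 4.71% of all probe sets tested were changed and 1.94% were lower. In nub1 guts 4 of 9 were changed, where 9.28% of all probe sets were. Lip3 was higher (3.15% of all were higher), and AkhR, Lsd-1 and Lip4 were lower (6.13% of all were lower). The median log2 change over the genes tested was -0.37 in carcass, beside -0.02 over all probe sets, and -0.36 in gut, beside -0.06 over all. The 3 nub1 arrays did not overlap the 3 wt arrays for 6 of the 8 genes in carcass, where this held for 45% of all probe sets, and for 7 of 9 in gut, beside 40.8% of all. Whatever the fold, the adjusted p was under 0.05 for 4 of 8 genes in carcass, beside 15.5% of all, and for 7 of 9 in gut, beside 34.9% of all. The effect in gut minus that in carcass was called for 3 of 9 genes where 6.56% of all probe sets were, higher for Lip3 (1.86% of all) and lower for Lsd-1 and Lip4 (4.7% of all), and with ACC its adjusted p was under 0.05 for 4, beside 14.0% of all. Without the arrays with Dup99B the count in carcass was 1, which was AkhR, and in gut the count was 4 without either set of doubted arrays. Leaving out the eggshell set left 1 wt gut array, and leaving out the Dup99B set left 1 nub1 gut array, each assumed to vary like the other groups. That nub1 gut array was array 2, which itself belongs to the eggshell set.

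**Figure D1:**
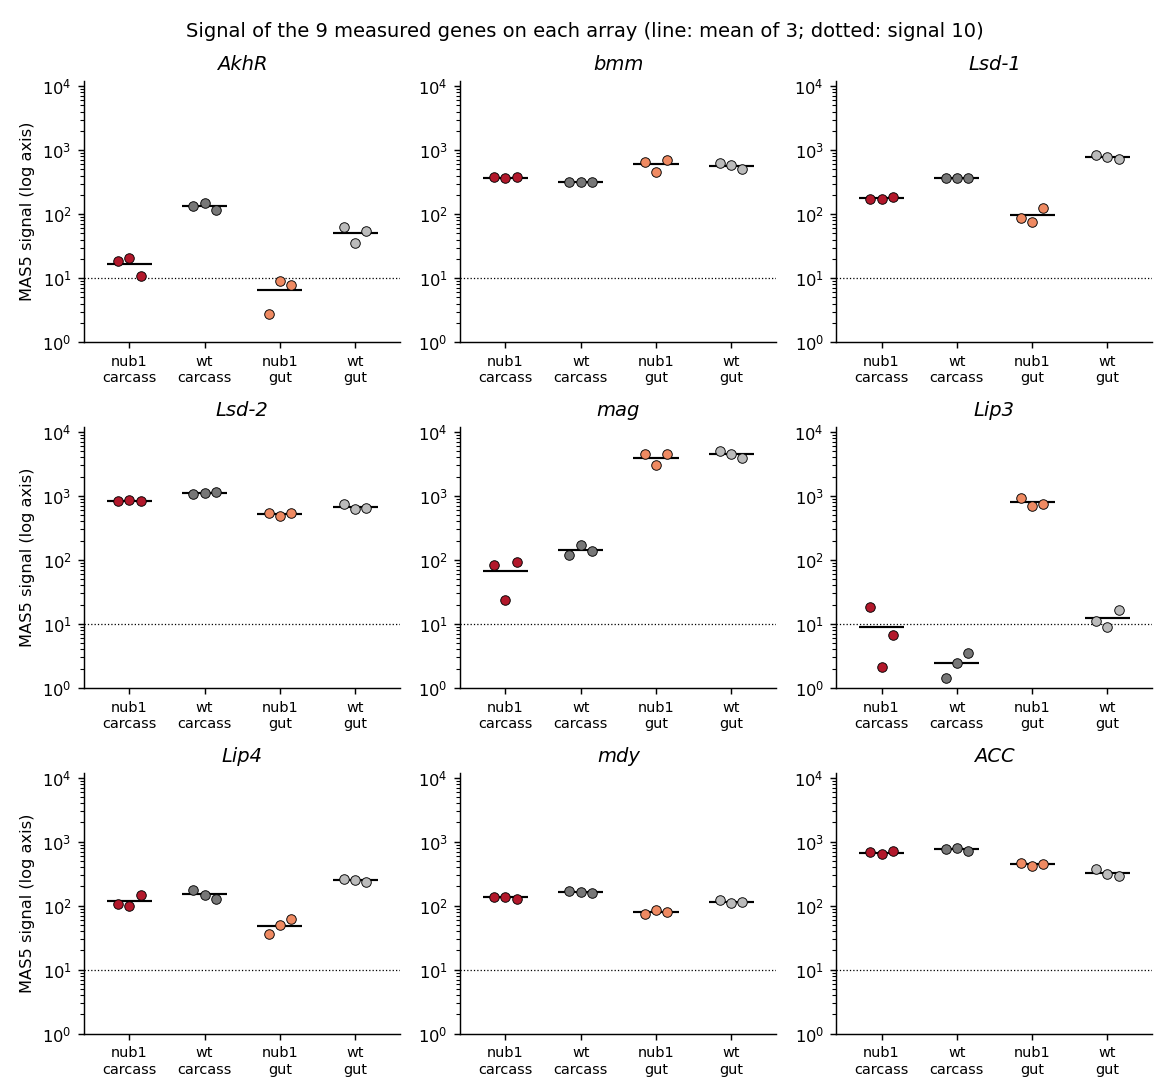
MAS5 signal on a log axis for each of the 9 measured genes on each of the 12 arrays. Points are arrays, lines are means of 3 arrays and the dotted line marks a signal of 10; AkhR and Lsd-1 are lower in nub1 in both tissues, Lip3 is above 600 only in nub1 guts, and mag is at 2999.7 or more in guts of both genotypes.

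AkhR, the receptor for AKH, was lower in nub1 in both tissues. Its main probe set (1635442_a_at) had 18.7, 20.6 and 10.7 in nub1 carcasses, against 132.7, 146.7 and 115.6 in wt carcasses. Every nub1 carcass was below every wt carcass by a wide margin, and the means of 16.6 ± 5.24 and 132 ± 15.6 differed 7.91-fold (log2 change -2.42, SE 0.21, limma adjusted p = 1.36e-05). The log2 change was the 18th most negative among 8855 probe sets tested.

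In nub1 guts the same probe set had 2.79, 9.09 and 7.86, against 63.0, 35.6 and 54.8 in wt guts. All 3 nub1 guts were under the signal of 10 that was required of a tested group, so their level is only bounded and AkhR was at least 4.97-fold lower (log2 change -1.88, SE 0.21, adjusted p = 4.91e-05). The effect in gut minus that in carcass was 0.55 with a 95% interval of -0.12 to 1.21 (adjusted p = 0.265), an interval that does not show equal effects. The gut side of this difference rests on nub1 signals under 10, so its size is not exact. In bulk tissue, fewer cells that express AkhR and less AkhR RNA in each cell cannot be told apart, which holds for every gene below.

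A dimmer probe set for AkhR (1629609_at) had 5.47, 1.42 and 1.88 in nub1 carcasses, against 12.7, 13.0 and 15.7 in wt carcasses. It ran in the same direction without passing the 2-fold threshold (log2 change -0.89, SE 0.16, adjusted p = 0.00249), which it passed with a pseudocount of 1 (-2.05) and without nub1 carcass array 1 (-1.03). It was under 10 on all gut arrays. Between tissues of wt flies AkhR was lower in gut than in carcass, with a log2 difference of -1.23 (adjusted p = 2.16e-04), which came to -0.95 without the gut arrays highest in eggshell transcripts and -0.99 with a pseudocount of 32. The order of group means was wt carcass, wt gut, nub1 carcass and nub1 gut, and no 2 neighbours in it had overlapping arrays.

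Lsd-1, the perilipin that is needed for hormone-stimulated breakdown of the droplet, was the droplet gene with the widest change. Its probe set (1636510_a_at) had 87.2, 74.7 and 126.2 in nub1 guts, against 831.3, 783.0 and 734.3 in wt guts. The groups lay far apart, with means of 96.1 ± 26.9 in nub1 guts and 783 ± 48.5 in wt guts, an 8.15-fold difference (log2 change -2.93, SE 0.14, adjusted p = 9.52e-08). The log2 change was the 46th most negative of 9782 probe sets.

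In carcass Lsd-1 had 174.5, 175.0 and 185.6 in nub1 flies, against 369.0, 369.5 and 363.9 in wt flies. The arrays within each genotype were close and the means, 178 ± 6.28 in nub1 and 368 ± 3.09 in wt, differed 2.06-fold (log2 change -1.004, SE 0.14, adjusted p = 4.13e-04). This call stood at the 2-fold threshold and was lost at a log2 change of -0.93 with a pseudocount of 32 and of -0.99 without nub1 carcass array 1, without nub1 carcass array 2 and without all arrays with Dup99B, and it was just short of 2-fold without wt carcass array 2.

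The effect on Lsd-1 differed between tissues by -1.93, gut minus carcass (SE 0.20, adjusted p = 1.11e-04). In wt flies Lsd-1 was higher in gut than in carcass, with a log2 difference of 1.07 (adjusted p = 2.40e-05). In nub1 flies the difference ran the other way at -0.86 (adjusted p = 1.37e-04), which is under 2-fold, and passed 2-fold without nub1 gut array 3 (-1.05) and without the arrays with Dup99B (-1.16). The order of means was thus wt gut, wt carcass, nub1 carcass and nub1 gut, with no overlap between neighbours.

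Lsd-2, the perilipin that shields the droplet from lipases, differed less. Its probe set (1637359_at) had 829.2, 859.0 and 833.5 in nub1 carcasses, against 1060.9, 1102.3 and 1138.0 in wt carcasses, and the means differed 1.31-fold (log2 change -0.38, SE 0.08, adjusted p = 0.00624). In gut it had 545.6, 491.5 and 532.9 in nub1 flies, against 743.8, 634.4 and 643.2 in wt flies, 1.29-fold apart (log2 change -0.36, adjusted p = 0.00534). In both tissues every nub1 array was below every wt array, by less than the 2-fold that a call required. The effect in gut minus that in carcass was 0.03 with a 95% interval of -0.22 to 0.28.

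bmm encodes Brummer, the fly relative of adipose triglyceride lipase. Its probe set (1640754_at) had 377.0, 360.2 and 381.2 in nub1 carcasses, against 315.4, 318.6 and 315.2 in wt carcasses. The arrays did not overlap, yet the means were 1.18-fold apart and the test was not passed (log2 change 0.23, 95% interval -0.07 to 0.52, adjusted p = 0.325). In gut bmm had 644.9, 461.1 and 698.3 in nub1 flies and 619.2, 595.5 and 502.4 in wt flies, with overlapping arrays (log2 change 0.05, 95% interval -0.24 to 0.35, adjusted p = 0.783). Both intervals leave out a 2-fold change in either direction. The gut level of bmm was 1.61 times the carcass level in nub1 flies and 1.81 times in wt flies.

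**Figure D2:**
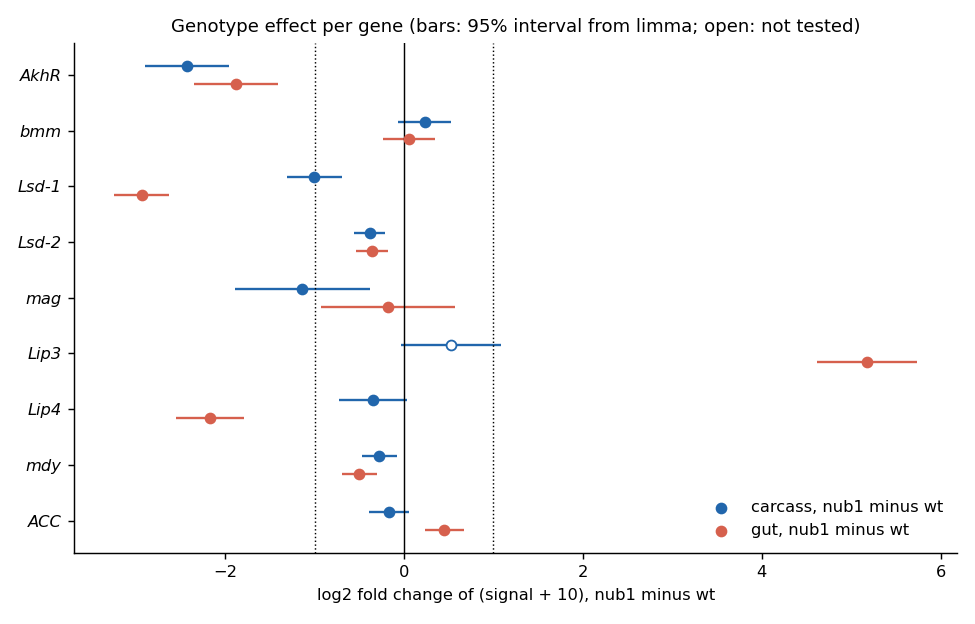
Log2 fold change of (signal + 10), nub1 minus wt, for each gene in carcass (upper point) and gut (lower point), with 95% intervals from limma; dotted lines mark 2-fold changes and the open point was not tested. The intervals for carcass and gut lie far apart for Lsd-1, Lip3 and Lip4, and both intervals for bmm span 0.

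The acid lipase family genes moved in different directions. Lip3, an acid lipase gene known to be induced in starved flies, had the largest change of the 9 genes. Its probe set (1628076_at) had 940.0, 696.2 and 744.2 in nub1 guts, against 11, 9.10 and 16.6 in wt guts. Every nub1 gut was above 600 and no wt gut reached 20, and the means of 794 ± 129 in nub1 guts and 12.2 ± 3.93 in wt guts differed 64.8-fold (log2 change 5.18, SE 0.26, adjusted p = 1.10e-07). It was the 5th most positive log2 change among 9782 probe sets. Lip3 entered this test through its nub1 guts alone. Its wt guts read near the signal of 10, so the size of the change is not exact.

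In carcass Lip3 had 18.3, 2.12 and 6.67 in nub1 flies and 1.41, 2.48 and 3.53 in wt flies, too dim to be tested. The fitted effect in gut minus that in carcass was 4.65 (SE 0.36, adjusted p = 1.36e-05), but its carcass side rests on signals of 1.41 to 18.3, so its size is not an exact value. Over those same gut arrays the mean log2 level of midgut digestive enzyme genes was 12.6 to 13.0 in nub1 flies and 12.0 to 12.5 in wt flies. Of the 6, only Mal-A1 was changed, also higher (log2 change 2.81), and the median log2 change was 0.18. The part of these changes in the Lip3 result was not tested.

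Lip4, an acid lipase gene of the fat body known as a target of FOXO, was lower in nub1 guts. Its probe set (1624505_at) had 35.8, 49.2 and 61.0 in nub1 guts, against 259.7, 254.6 and 234.2 in wt guts. The groups did not overlap and their means, 48.7 ± 12.6 in nub1 and 249 ± 13.5 in wt, differed 5.13-fold (log2 change -2.17, SE 0.17, adjusted p = 3.36e-06). In carcass it had 104.8, 100.3 and 144.6 in nub1 flies and 174.7, 147.9 and 128.3 in wt flies, overlapping values that did not pass the test (log2 change -0.35, adjusted p = 0.240).

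The effect on Lip4 in gut minus that in carcass was -1.82 (SE 0.25, adjusted p = 7.29e-04). In nub1 flies Lip4 was lower in gut than in carcass (log2 difference -1.11, adjusted p = 9.84e-05, and -0.87 after quantile normalisation, -0.88 with a pseudocount of 32, -0.96 without nub1 carcass array 3 and -0.95 without nub1 gut array 1), while in wt flies it stood higher in gut by 0.70 (adjusted p = 0.00271), under 2-fold.

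mag encodes Magro, a lipase that the midgut secretes to digest dietary triglyceride, and its level followed the tissue. In gut its probe set (1636583_at) had 4446.2, 2999.7 and 4440.2 in nub1 flies and 4970.8, 4464.4 and 3881.9 in wt flies. The genotypes overlapped and did not pass the test (log2 change -0.18, 95% interval -0.93 to 0.57, adjusted p = 0.714), and the log2 change was -0.56 (adjusted p = 0.0432) without the arrays with Dup99B. The gut mean was 59.5 times the carcass mean in nub1 flies and 31.2 times in wt flies.

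In carcass mag had 82.4, 23.6 and 93.9 in nub1 flies, against 119.3, 170.1 and 136.8 in wt flies. All nub1 carcasses were below all wt carcasses, 2.13-fold by means, and the test was just passed (log2 change -1.13, SE 0.34, adjusted p = 0.0435). The call stood near both thresholds. Without nub1 carcass array 2 the log2 change was -0.62 (adjusted p = 0.0648). It was -1.25 to -1.01 with any wt carcass left out (adjusted p between 0.0733 and 0.150), and the call was also lost, at log2 changes of -1.29 to -0.90, with other pseudocounts, without the trend or the filter, after quantile normalisation and without most single gut arrays (adjusted p at most 0.082). The carcass levels were 1.68% of the gut mean in nub1 flies and 3.20% in wt flies. On the same arrays the midgut enzyme genes had mean log2 levels of 9.20, 8.26 and 9.12 in nub1 carcasses and 8.10, 8.80 and 8.42 in wt carcasses. Of these genes 5 were tested in carcass, with a median log2 change of -0.52, and Mal-A1 alone was changed, higher (3.43). Their summed signal was 3500.9 to 6296.1 in nub1 carcasses and 4903.2 to 7501.6 in wt carcasses. The lowest nub1 value of mag and of the midgut enzyme mean belonged to array 2, and the part of gut RNA in the carcass signal of mag was not tested. The effect on mag in gut minus that in carcass was 0.95 with a 95% interval of -0.11 to 2.02 (adjusted p = 0.222).

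mdy and ACC, which act in synthesis, differed by less than 2-fold between genotypes. mdy (midway) encodes the diglyceride acyltransferase that completes a triglyceride. Its probe set (1636579_s_at) had 73.7, 85.3 and 78.4 in nub1 guts, against 122.6, 109.3 and 115.7 in wt guts, without overlap and 1.46-fold apart (log2 change -0.50, SE 0.09, adjusted p = 0.0012). In carcass it had 139.0, 137.8 and 126.4 in nub1 flies and 172.6, 160.9 and 160.1 in wt flies, also without overlap, at a log2 change of -0.27 (adjusted p = 0.0605).

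ACC encodes acetyl-CoA carboxylase, which makes the malonyl-CoA from which fatty acids are built. Its probe set (1636923_a_at) had 465.7, 414.9 and 450.2 in nub1 guts, against 372.4, 307.5 and 289.1 in wt guts. Every nub1 gut was above every wt gut, 1.37-fold by means (log2 change 0.45, SE 0.10, adjusted p = 0.00485). In carcass it had 680.0, 633.1 and 707.1 in nub1 flies and 775.6, 791.3 and 704.0 in wt flies, which overlapped (log2 change -0.17, adjusted p = 0.348). ACC was the only gene of the set that stood higher in nub1 gut and lower in nub1 carcass with a difference between tissues that passed an adjusted p of 0.05 (0.62, SE 0.14, adjusted p = 0.015), although neither effect reached 2-fold and the adjusted p was 0.0756 without the arrays with Dup99B. In wt flies ACC was lower in gut than in carcass by a log2 difference of -1.21 (adjusted p = 5.85e-07).

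Between tissues, 4 of the 8 genes tested in wt flies were changed. mag and Lsd-1 were higher in gut and AkhR and ACC were lower, where 39.7% of all probe sets were changed, 17.8% higher and 21.9% lower. In nub1 flies 3 of 9 were changed, with mag and Lip3 higher and Lip4 lower in gut, where 38.4% of all probe sets were changed, 15.6% higher and 22.7% lower. Over all probe sets the median gut minus carcass log2 difference was -0.46 in nub1 and -0.32 in wt, and quantile normalisation moved it to -0.34 in nub1 and -0.26 in wt. The part of this shift in the differences below 0 was not tested. Lip3 was tested through its nub1 gut signal alone, at 696.2 or more in nub1 guts and 18.3 or less in nub1 carcasses, and in wt flies it was too dim to be tested.

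Markers of other cell types moved on the same arrays. In gut, 2 of 7 fat body markers were changed downwards, Apoltp (log2 change -1.58) and GNBP3 (-1.43), and Tsf1 was changed upwards (1.02). Mtp (-0.55) and apolpp (-0.66) were lower and regucalcin (0.66) and Lsp2 (0.91) higher, each under 2-fold. The median log2 change of the 7 was -0.55 in gut, beside -0.06 over all probe sets. The mean log2 level of the 7 was 7.00 to 7.46 in nub1 guts and 7.43 to 7.55 in wt guts. Their summed signal was 2024.2 to 3019.6 in nub1 guts and 2100.7 to 2304.8 in wt guts, and none was listed at 0. Of the 3 measured Malpighian tubule markers Irk3 was lower in nub1 guts (-2.04), beside ZnT35C (-0.11) and CG15406 (0.40), which were not changed, and a median of -0.11, and the mean log2 level was 7.04 to 7.35 in nub1 guts and 7.68 to 7.90 in wt guts. Their part in the lower AkhR, Lsd-1 and Lip4 signals of nub1 guts was not tested. In carcass Tsf1 (1.60) and Lsp2 (2.67) were higher, Apoltp (-0.72) and GNBP3 (-0.94) stayed under 2-fold, and the summed signal was 5731.4 to 7434.4 in nub1 carcasses and 3448.1 to 4631.9 in wt carcasses. The carcass mean log2 level of these markers overlapped, at 8.71 to 9.05 in nub1 and 8.07 to 8.76 in wt, and their median log2 change was 0.19. Of the Malpighian tubule markers ZnT35C was lower (-2.08) and CG15406 higher (1.24) in nub1 carcasses, and their mean log2 level was 5.57 to 5.74 in nub1 carcasses and 5.96 to 6.12 in wt carcasses. Their part in the lower AkhR and Lsd-1 signals of nub1 carcasses was not tested. Of the 5 muscle markers 1 was changed in carcass, higher, and the median log2 change was 0.25 there and -0.32 over 3 tested in gut. The median over ovary and eggshell genes was -0.08 for 11 in carcass and -0.20 for 7 in gut, and that over ejaculatory duct genes was 0.52 for 1 in carcass and -0.14 for 2 in gut. The duct genes not tested in gut, Dup99B, EbpII and Ebp, averaged 411.4, 36.15 and 46.26 in nub1 guts and 2.99, 0.55 and 6.40 in wt guts. The mean log2 level of the duct list was 5.83 to 8.35 in nub1 guts and 5.74 to 5.92 in wt guts.

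**Figure D3:**
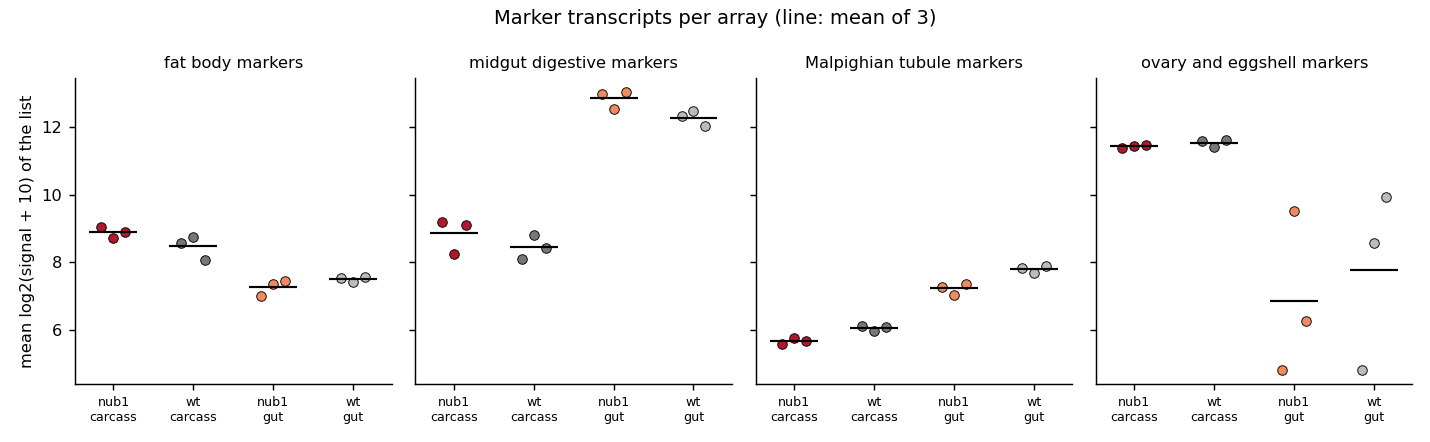
Mean log2(signal + 10) of the measured markers of fat body, midgut, Malpighian tubule and ovary with eggshell on each array, with lines at the mean of 3 arrays. Fat body levels in gut lie at 7.00 to 7.46 in nub1 and 7.43 to 7.55 in wt, and eggshell levels spread between 4.81 and 9.94 over the gut arrays.

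Of the other genes of AKH signalling, 13 of 16 listed were measured. In carcass 1 of 11 was changed, beside 4.71% of all probe sets, and in gut 1 of 12, beside 9.28% of all, in both cases Galphaq, the alpha subunit of a G protein that acts on phospholipase C, and it was higher (2.77% of all probe sets were higher in carcass). The median log2 change was -0.06 in carcass and 0.15 in gut, beside -0.02 and -0.06 over all probe sets. Galphaq had 142.1, 94.6 and 141.9 in nub1 guts, against 28.1, 29.8 and 32.9 in wt guts (log2 change 1.74, SE 0.15, adjusted p = 5.63e-06). In carcass it had 56.2, 49.7 and 56.4 in nub1 flies, against 21.8, 18.3 and 24.9 in wt flies, without overlap (log2 change 1.02, SE 0.15, adjusted p = 5.83e-04), a call lost after quantile normalisation (0.80), without wt carcass array 2 (0.94) and, just short of 2-fold, without nub1 carcass array 1 or 3.

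Akh, the gene of the hormone itself, had 164.8, 94.3 and 162.4 in nub1 guts and 117.6, 33.9 and 62.9 in wt guts. Its arrays overlapped, and its log2 change of 0.98 (SE 0.31, adjusted p = 0.0302) stayed just under 2-fold, a threshold it passed with a pseudocount of 1 (1.10), after quantile normalisation (1.12), without nub1 gut array 2 (1.23) and without wt gut array 1 (1.37). In carcass Akh averaged 17.0 in nub1 flies and 18.25 in wt flies. How much of the corpora cardiaca the dissected guts held is not stated, and its part in this difference was not tested. Akh was chosen for mention after its values were seen, as the ligand of AkhR.

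Of the 18 genes of fatty acid and triglyceride synthesis, all measured, 17 were tested. In carcass 2 were changed, both lower (1.94% of all probe sets were lower), and in gut 1 was higher and 2 were lower (3.15% of all were higher and 6.13% lower). The median log2 change was -0.07 in carcass and -0.04 in gut. sug (sugarbabe), a zinc finger factor of the response to dietary sugar, had 95.6, 57.7 and 98.8 in nub1 guts, against 555.6, 410.8 and 345.2 in wt guts (log2 change -2.25, SE 0.19, adjusted p = 5.69e-06). In carcass sug had 23.2, 25.2 and 19.9 in nub1 flies, against 72.9, 69.2 and 65.2 in wt flies (log2 change -1.27, adjusted p = 7.83e-04). It was thus lower in nub1 in both tissues, as AkhR and Lsd-1 were.

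Dgat2, an acyltransferase of the last step of triglyceride synthesis beside mdy, had 35.3, 22.4 and 37.8 in nub1 guts, against 158.6, 130.5 and 179.5 in wt guts (log2 change -2.0, SE 0.21, adjusted p = 2.22e-05). In carcass it had 7.59, 5.82 and 12.6 in nub1 flies, against 45.8, 67.3 and 41.3 in wt flies (log2 change -1.71, adjusted p = 1.36e-04). Neither tissue had overlapping arrays. Agpat1, an acyltransferase of an earlier step, had 36.3, 50.4 and 25.4 in nub1 guts, against 8.82, 11.3 and 7.79 in wt guts (log2 change 1.26, SE 0.18, adjusted p = 2.46e-04), and its values overlapped in carcass. The 4 other droplet genes, Jabba, Seipin, sturkopf and Pcyt1, stayed under 2-fold in both tissues, and in gut limma's adjusted p was under 0.05 for Seipin (log2 change -0.73, adjusted p = 0.00137) and sturkopf (0.26, adjusted p = 0.0327). Without the arrays with Dup99B, the log2 change in gut was 1.04 for Jabba and -1.10 for Seipin. That fit left 1 nub1 gut array, array 2, again assumed to vary like the others and itself high in eggshell transcripts. Jabba had 698.0 on it, beside 300.6 and 257.9 on nub1 gut arrays 1 and 3.

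**Figure D4:**
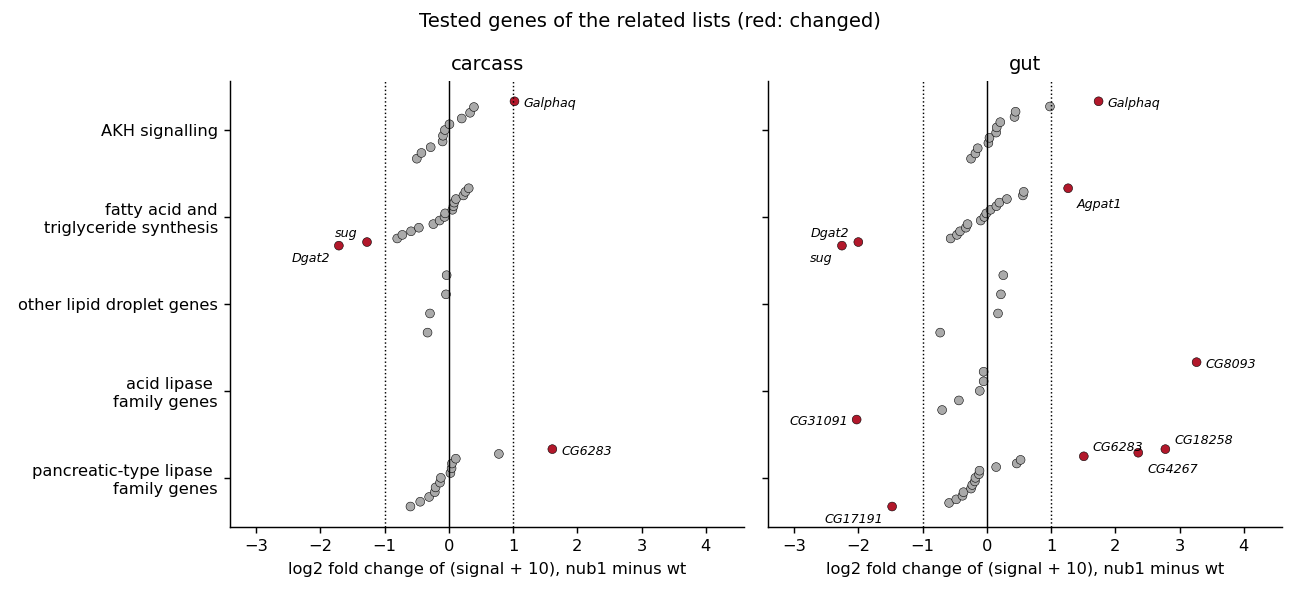
Log2 fold change of (signal + 10), nub1 minus wt, of the tested genes of 5 related gene lists in carcass and gut; each point is a gene, red points were changed and named, and dotted lines mark 2-fold. No acid lipase family gene was bright enough to be tested in carcass, and sug and Dgat2 lie below -1 in both tissues.

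The 17 other acid lipase family genes were dim in carcass, where none could be tested, and 7 were tested in gut, with 1 higher and 1 lower, where 9.28% of all probe sets were changed, and a median log2 change of -0.11. CG8093 had 3691.5, 2357.5 and 3330.9 in nub1 guts, against 283.1, 405.4 and 261.1 in wt guts (log2 change 3.26, SE 0.41, adjusted p = 8.75e-05). It was higher in nub1 guts as Lip3 was, by 9.88-fold of means. CG31091 had 52.5, 15.8 and 49.5 in nub1 guts, against 86.9, 324.5 and 190.1 in wt guts (log2 change -2.03, SE 0.47, adjusted p = 0.00572). Without the gut arrays highest in eggshell transcripts, which left 1 wt gut array, its log2 change was -0.67 (adjusted p = 0.272).

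Of the pancreatic-type lipase family, 28 of 31 listed genes were measured. In carcass 1 of 13 was changed, CG6283 (log2 change 1.61), with a median of -0.13, where 4.71% of all probe sets were changed. CG6283 had 52.6, 20.0 and 44.2 in nub1 carcasses, against 10.8, 2.56 and 3.72 in wt carcasses. It was tested through nub1 carcasses alone, so the size of this change is not exact. The part of gut RNA in its carcass signal was not tested. In gut 3 of 17 were higher (3.15% of all probe sets) and 1 was lower (6.13% of all), with a median of -0.18. CG18258 averaged 499 ± 176 in nub1 guts and 63.5 ± 24.5 in wt guts (log2 change 2.78, SE 0.31, adjusted p = 4.57e-05). CG4267 averaged 1144.0 in nub1 guts and 232.3 in wt guts (2.36, adjusted p = 7.63e-04), and CG6283 averaged 3587.2 in nub1 guts and 1234.5 in wt guts (1.51, adjusted p = 0.00132). The lower gene, CG17191, averaged 9.71 ± 2.04 in nub1 guts and 46.9 ± 18.4 in wt guts (-1.47, adjusted p = 0.00122), and its log2 change was -0.82 (adjusted p = 0.0842) without the gut arrays highest in eggshell transcripts.

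The genes most like AkhR, bmm and Lsd-1 over the 12 arrays were found by Pearson's r of log2(signal + 10) among 8378 genes. These 12 points fall into 4 groups of 3 arrays, so r mainly follows the 4 group means. CG9044 (r = 0.985), the cytochrome P450 gene Cyp6w1 (0.985) and CG4259 (0.984) were most like AkhR. Cyp6w1 averaged 113.7 in nub1 carcasses, 523.2 in wt carcasses, 70.2 in nub1 guts and 268.5 in wt guts, the same order as AkhR. The aldehyde oxidase gene AOX3 (0.986), Abca3 (0.984) and Pvr (0.982), a receptor tyrosine kinase gene, were most like bmm. VhaAC45RP (0.985), CG5171 (0.984) and CG10479 (0.961) were most like Lsd-1. VhaAC45RP averaged 13.8 in nub1 carcasses, 27.9 in wt carcasses, 7.45 in nub1 guts and 50.0 in wt guts.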

How the data were processed

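RNA of pools of flies was read on 12 Affymetrix Drosophila Genome arrays, and gut and carcass arrays were fitted as independent. The deposited values are linear intensities that the authors made with MAS5 in Affymetrix Expression Console and scaled to a target of 100. Control probe sets (183) were left out. Probe sets took current symbols through RefSeq (13646 had 1 gene, 402 several and 4721 none named here), and a gene was represented by its probe set of highest mean signal. limma 3.58.1 (R 4.3.3) fitted log2(signal + 10) to the means of 4 groups with eBayes and an intensity trend. Probe sets entered a test if the 3 arrays of a compared group (of any group, for the difference between tissues) all read 10 or more. Where 1 group was under 10 on all 3 arrays, the fold is the other group's geometric mean over 10. Members and gene lists were chosen with earlier results of these data known. The text names all probe sets of the members, nub and pr, up to 4 changed genes of each list and tissue, and the 3 genes most like AkhR, bmm and Lsd-1. The marker lists were of fat body, midgut, muscle, ovary and eggshell, ejaculatory duct and Malpighian tubule. Alternatives were pseudocounts of 1 and 32, no filter, quantile normalisation, no trend, a replicate block, each array left out, the methods' t-test and, chosen after seeing the data, leaving out the arrays with eggshell or duct transcripts. The fits were tested on simulated data. No 2 arrays of the same group held identical values. Sequences and genome positions were not used here.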

Additional observations from a re-analysis of the deposited data

Results flagged for a closer look

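For 4 genes the genotype effect differed between tissues by limma's test of the difference itself (gut effect minus carcass effect, on log2(signal + 10)). Lsd-1 differed by -1.93 (adjusted p = 1.11e-04), with nub1 below wt on every array pair of both tissues. Lip3 differed by 4.65 (adjusted p = 1.36e-05), with 5 of its 6 carcass arrays under 10, so that the size is not exact. Lip4 differed by -1.82 (adjusted p = 7.29e-04), with overlapping genotypes in carcass only. ACC differed by 0.62 (adjusted p = 0.015), with neither tissue's effect at 2-fold, and its adjusted p was 0.0756 without the arrays with duct transcripts. Of all probe sets tested, 14% passed the same adjusted p for this difference, and 6.56% passed with 2-fold.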

How the results depend on the processing

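Of the values of single genes recomputed under the alternatives, 1198 kept direction and side of the threshold, 48 lost and 7 gained it and 11 changed sign. The sign changes were of small values. With each array left out in turn, bmm in gut (0.054) ranged between -0.063 and 0.231, its difference between tissues (-0.176) between -0.293 and 0.002, the difference for Lsd-2 (0.028) between -0.013 and 0.10, and mag in gut (-0.18) between -0.274 and 0.009. Without the arrays with duct transcripts bmm in gut was -0.30 and its difference between tissues -0.554 (adjusted p = 0.0278), mag in gut was -0.557 (adjusted p = 0.0432) and the difference for Lsd-2 -0.044, and this difference was -0.073 without the arrays with eggshell transcripts.

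With a pseudocount of 32, 230 probe sets were changed in carcass (417 in the analysis as reported), 549 in gut (908) and 403 in the difference (669), and 1 member (AkhR) was changed in carcass. Among the lists it gave 0 AKH signalling, 1 synthesis and 0 pancreatic-type lipase genes in carcass, and a pseudocount of 1 gave 2 AKH signalling genes in gut and 2 pancreatic-type lipase genes in carcass. With 32, calls of single genes that ended included those of sug (-0.89) and CG6283 (0.89) in carcass and of Agpat1 (0.73) and CG17191 (-0.89) in gut, Galphaq in carcass (0.68) and Lip4 between the tissues of nub1 flies (-0.88). Quantile normalisation gave 0 AKH signalling genes in carcass and 2 in gut. The methods' t-test called 601 probe sets in carcass and 1156 in gut unadjusted, and 472 and 539 after Benjamini-Hochberg, where 3 members remained in gut (AkhR at an adjusted p of 0.0548). After that adjustment the calls of mag (0.1325) and CG6283 (0.103) in carcass and of sug (0.0516), Agpat1 (0.0942), CG4267 (0.136), CG18258 (0.0799), CG6283 (0.0624), CG17191 (0.111) and CG31091 (0.219) in gut were lost too, each at the adjusted p in brackets. Without the arrays with duct transcripts the difference had 1070, the gut against carcass comparison of nub1 flies 2140 (3622 as reported), members in carcass 1 and other droplet genes in gut 2. Without the arrays with eggshell transcripts 1 acid lipase gene was changed in gut. With each array left out in turn, members in carcass counted 1 to 3 (1 without array 2 of either genotype's carcass), AKH signalling genes 0 to 1 in carcass and 1 to 2 in gut, and all probe sets 406 to 448 in carcass and 896 to 970 in gut. The causes were not tested.

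The main fit did not pair arrays by replicate number. Same-numbered arrays' deviations correlated at -0.35 to 0.33 between gut groups and at -0.08 to -0.01 between carcass groups. Between carcass and gut of the same genotype they correlated at -0.03 to 0.15 in nub1 and -0.04 to 0.17 in wt. In each of these 2 comparisons 2 of 6 arrays correlated best with their own number. These values do not tell whether gut and carcass arrays shared flies. With the replicate block 414 probe sets were changed in carcass and 906 in gut, and no member's call moved. Signals near or under 10 limit AkhR and Dgat2 in the dimmer groups, and Lip3 in carcass and in wt guts. They also limit Agpat1 in wt guts, CG17191 in nub1 guts and CG6283 in wt carcasses. With 3 arrays a group, the precision of every value is limited.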
